A study of Sorghum bicolor with 6 samples.

Results

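The 3 carbonic anhydrase genes CA1 (Sobic.003G234200.v3.2), CA2 (Sobic.003G234400.v3.2) and CA3 (Sobic.003G234500.v3.2) carry neighbouring gene numbers and are 3 of the 34129 gene models with a deposited value. They were chosen by identifier, with earlier results of these data known, and all 3 passed the filter on low counts. The sources used here do not pair the identifiers with names, proteins or positions, so the enzyme names and the neighbourhood could not be checked against an annotation, and no sequence is shown. Leaves of sorghum (Sorghum bicolor) plants 4 weeks old were profiled by RNA-seq in 2 groups of 3 libraries, one from plants with an empty vector and one from plants overexpressing the flowering regulator SbGhd7 (SbGhd7 OE). The question the comparison addresses is which leaf transcripts differ when SbGhd7, a CCT-domain protein of photoperiodic flowering, is overexpressed. No source used here gives the promoter of the transgene, the parent line, the number of transformation events, the day length or the hour of harvest. It is also not stated whether each library is a separate plant, and p-values therefore describe spread among libraries that could be technical in part.

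Carbonic anhydrase interconverts carbon dioxide and bicarbonate. In a C4 leaf such as that of sorghum or maize, the enzyme in the mesophyll cytosol supplies bicarbonate to phosphoenolpyruvate carboxylase (PEPC), which makes the first C4 acid. The reduced form of this acid is carried to the bundle sheath, where carbon dioxide is released again around Rubisco. Grasses hold several β-type carbonic anhydrase genes, some of them side by side, and copies can differ in how strongly the leaf uses them.

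The library totals lay between 27844391 and 35830080 deposited counts, and 20820 gene models passed the filter and were tested. SbGhd7 (Sobic.006G004400) stood at 0.948 to 1.94 CPM (counts scaled to a common library size) in the controls and at 336.5 to 734.0 CPM in SbGhd7 OE, so every library matched its label for the overexpressed gene. The first principal component, with 78.3% of the variance, separated the groups. On the second, with 7.71%, the libraries farthest from their group were replicate 3 of the empty vector and replicate 2 of SbGhd7 OE, and results are given below without them where that matters. Transcripts of the C4 leaf were abundant in all 6 libraries. The 3 mesophyll markers (PEPC, pyruvate, phosphate dikinase and NADP-malate dehydrogenase) summed to 9558 to 11192 CPM in the controls and 25676 to 37258 CPM in SbGhd7 OE. The 2 bundle sheath markers (NADP-malic enzyme and the Rubisco small subunit) summed to 5823 to 7581 CPM and 3968 to 4375 CPM, and none of the 5 markers was at 0 in any library.

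CA1 and CA2 rose about as steeply as each other in SbGhd7 OE leaves, 20.5-fold and 20.6-fold, and CA3, the gene numbered next to CA2, did not pass the test. Of the 3 genes 2 rose and none fell, against 53.3% called in either direction and 28.0% called higher over all tested genes, so the number of calls does not set these genes apart. In size, 346 of the 20820 tested genes had a larger fitted rise than CA1, and 344 had a larger one than CA2. The mesophyll markers also summed higher in SbGhd7 OE and the bundle sheath markers lower, as given above. Of the 2 bundle sheath markers, NADP-malic enzyme was called lower (log2 fold change -0.99). The Rubisco small subunit overlapped between the groups and did not pass with all 6 libraries (log2 fold change -0.39, adjusted p = 0.15 in edgeR). In whole leaf RNA, more cells of one type and more transcript per cell cannot be told apart.

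CA1, the copy with most of the counts, had values of 6820, 6286 and 12729 counts in empty vector replicates 1, 2 and 3. SbGhd7 OE replicates 1, 2 and 3 gave 144970, 138442 and 162103 counts. Scaled between libraries by the trimmed mean of M-values (TMM), these were 218.1, 203.5 and 344.6 CPM against 5388, 4506 and 5842 CPM. The groups did not overlap, and the lowest SbGhd7 OE library stood 13.1-fold above the highest control. Of all tested genes 64.0% had groups that did not overlap, and 32.4% did so with SbGhd7 OE higher. The mean rose from 255.4 ± 77.6 to 5245.4 ± 679.3 CPM (SD, n = 3 each), and the log2 fold change was 4.36 (95% interval 3.75 to 4.97, adjusted p = 1.2e-05 in edgeR's quasi-likelihood test, higher in 3 of 3 libraries).

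As a share of the whole library, CA1 took 0.0222%, 0.0208% and 0.0355% of all deposited counts in the control libraries and 0.503%, 0.449% and 0.582% in SbGhd7 OE. At these counts, counting error is small beside the spread between libraries, which was 30.4% of the mean in the controls (coefficient of variation) and 12.9% in SbGhd7 OE. Most of the control spread came from replicate 3, which held 1.64 times the mean CPM of replicates 1 and 2.

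CA2 followed CA1 with far fewer counts, though not library by library. The controls gave 693, 718 and 1311 counts and the SbGhd7 OE libraries 14886, 18547 and 14284. These were 22.2, 23.2 and 35.5 CPM against 553.2, 603.7 and 514.8 CPM, again with no overlap, and the lowest SbGhd7 OE library stood 14.5-fold above the highest control. The group means were 27.0 ± 7.41 and 557.2 ± 44.6 CPM (SD, n = 3 each). The log2 fold change was 4.37 (95% interval 3.86 to 4.87, adjusted p = 6.3e-06 in edgeR, higher in 3 of 3 libraries). As for CA1, control replicate 3 was the highest of its group, at 1.56 times the mean of the other two. Within SbGhd7 OE the order was not the same, since replicate 2 had the most CA2 and the least CA1.

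CA3 was nearly level across the controls and lay on both sides of them in SbGhd7 OE. Its counts were 1818, 1819 and 2163 in the controls and 1329, 2215 and 2071 in SbGhd7 OE. After scaling, the controls stood at 58.1, 58.9 and 58.6 CPM, a spread of 0.641% of the mean. Counting error alone would on average give a wider spread at these counts. The closeness of the 3 control values is therefore not a measure of precision. The SbGhd7 OE libraries stood at 49.4, 72.1 and 74.6 CPM, with replicate 1 below every control and replicates 2 and 3 above, so the groups overlapped. The means were 58.5 ± 0.375 and 65.4 ± 13.9 CPM (SD, n = 3 each). The log2 fold change was 0.16 and did not pass (95% interval -0.20 to 0.52, adjusted p = 0.42 in edgeR), which leaves room for anything from a fall to 0.870-fold to a rise to 1.43-fold. Without SbGhd7 OE replicate 1 the log2 fold change was 0.33 and passed (edgeR adjusted p = 0.043, in a range of 0.043 to 0.82 over the alternatives run). Unlike CA1 and CA2, CA3 was not raised in control replicate 3, where it held 1.00 times the mean of the other controls.

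**Figure D1:**
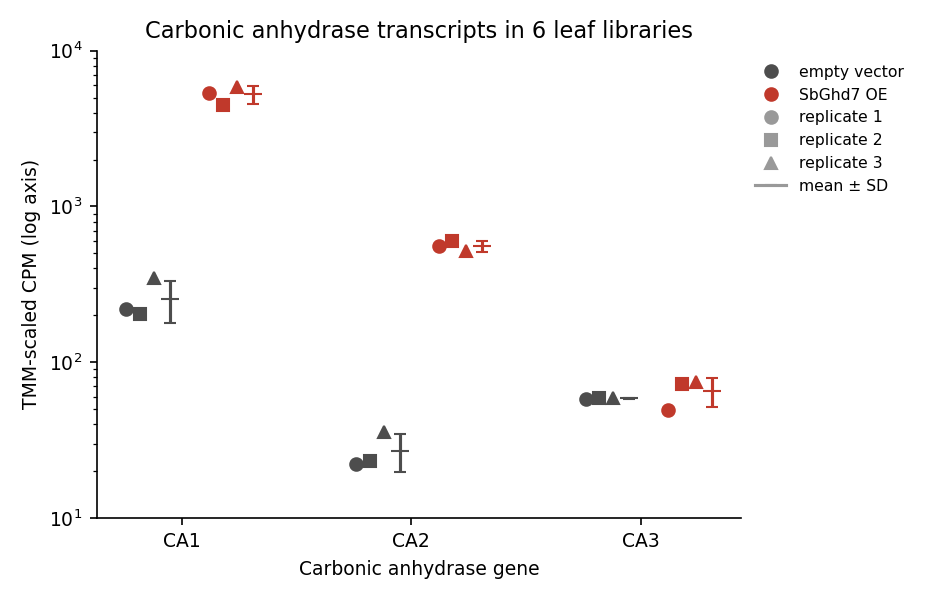
TMM-scaled CPM of CA1, CA2 and CA3 on a log axis, with 1 point for each of the 6 libraries (grey for empty vector, red for SbGhd7 OE; the shape gives the replicate) and a bar for the mean ± SD of each group. CA1 and CA2 sit far higher in all 3 SbGhd7 OE libraries, from 4506 and 514.8 CPM upwards, while the CA3 points of the groups overlap between 49.4 and 74.6 CPM.

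In every pair of a control with an SbGhd7 OE library, CA3 went down relative to both other copies. The count ratio of 2 genes within a library depends neither on the scaling between libraries nor, when groups are compared, on the lengths of the genes. For every 100 counts of CA1 there were 26.7, 28.9 and 17.0 counts of CA3 in the controls and 0.917, 1.60 and 1.28 in SbGhd7 OE. All 3 SbGhd7 OE ratios lay below all 3 control ratios, and the mean log2 ratios were -2.08 ± 0.413 and -6.34 ± 0.404 (SD, n = 3 each), which is 19.1-fold lower in SbGhd7 OE. Over the 9 pairs the difference ran from -4.98 to -3.41. An exact two-sided permutation test gave p = 0.1, the smallest that 3 against 3 libraries allow, and 0.12 after Benjamini-Hochberg adjustment over the 15 shares and ratios compared in this way.

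CA2 and CA3 exchanged places in the counts. There were 262.3, 253.3 and 165.0 counts of CA3 for every 100 of CA2 in the controls, and 8.93, 11.9 and 14.5 in SbGhd7 OE. The mean log2 ratios were 1.15 ± 0.373 and -3.11 ± 0.352 (SD, n = 3 each; 19.2-fold lower, exact permutation p = 0.1, adjusted 0.12). The order of the counts is not an order of transcript levels, because gene lengths are not in the sources used here.

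No difference was detected between the changes of CA1 and CA2. For every 100 counts of CA1 there were 10.2, 11.4 and 10.3 counts of CA2 in the controls and 10.3, 13.4 and 8.81 in SbGhd7 OE. The SbGhd7 OE libraries lay on both sides of the controls. The mean log2 ratio was -3.24 ± 0.0923 and -3.23 ± 0.306 (SD, n = 3 each), a difference of 0.0067 (exact permutation p = 0.9). Over the 9 pairs of a control with an SbGhd7 OE library the difference ran from -0.37 to 0.40. This range describes the spread among these libraries and sets no limit on how far the changes of CA1 and CA2 could differ. The exact test cannot settle that either, because its p-value cannot fall below 0.1 with n = 3 each, whatever the size of the difference. Related copies may share reads in the counting, and whether they did so was not tested, which makes the separate value of CA2 uncertain.

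Expressed as shares of the summed counts of the 3 genes, CA1 held most of the cluster in every library and more of it in SbGhd7 OE. Its share was 73.1%, 71.2% and 78.6% in the controls and 89.9%, 87.0% and 90.8% in SbGhd7 OE. The lowest SbGhd7 OE share lay 8.40 percentage points above the highest control share, and the means were 74.3% ± 3.80 and 89.2% ± 2.03 (SD, n = 3 each; exact permutation p = 0.1, adjusted 0.12). The CA3 share was lower, with 19.5%, 20.6% and 13.3% in the controls and 0.825%, 1.39% and 1.16% in SbGhd7 OE. Its means were 17.8% ± 3.91 and 1.13% ± 0.285 (SD, n = 3 each; exact permutation p = 0.1, adjusted 0.12). A share moves with the other members of the sum, and the CPM of CA3 itself did not pass the test.

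The CA2 share overlapped between the groups, at 7.43%, 8.14% and 8.09% in the controls and 9.24%, 11.6% and 8.00% in SbGhd7 OE. The overlap came from SbGhd7 OE replicate 3, and the means of 7.89% ± 0.398 and 9.63% ± 1.85 (SD, n = 3 each) did not pass (exact permutation p = 0.3, adjusted 0.32). Without SbGhd7 OE replicate 2 the difference of these means was 0.734 percentage points in place of 1.74, and leaving out each library in turn gave 0.734 to 2.56. The Wilson 95% interval of a single share covers counting error only. For the CA2 share it ran from 6.91% to 7.98% in control replicate 1 and from 11.5% to 11.8% in SbGhd7 OE replicate 2.

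**Figure D2:**
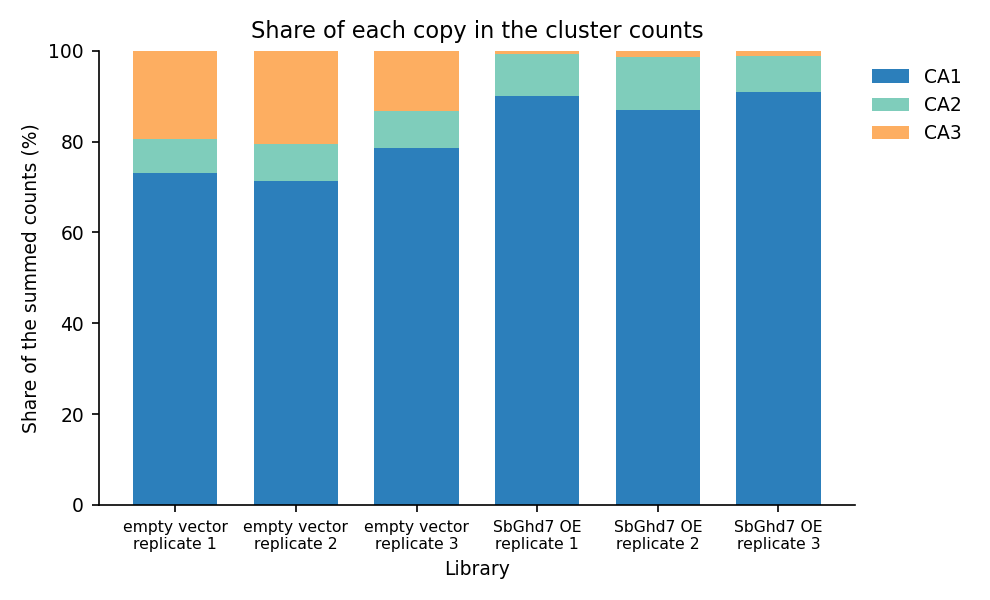
Stacked bars of the share (%) of CA1, CA2 and CA3 in their summed counts, 1 bar for each of the 6 libraries. The CA3 segment spans 13.3% to 20.6% in the empty vector libraries and 0.825% to 1.39% in SbGhd7 OE, and CA1 is the tallest segment in all 6 bars.

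If each shared read was counted once and within the 3 genes, their summed counts do not depend on how reads were divided among the copies. Whether reads were dropped, counted at several copies or shared with other genes is not stated in the sources used here. The sums were 9331, 8823 and 16203 in the controls and 161185, 159204 and 178458 in SbGhd7 OE. In a fit with the 3 genes replaced by their sum, the cluster rose from 340.9 ± 84.9 to 5868.1 ± 633.8 CPM (SD, n = 3 each), and the lowest SbGhd7 OE library stood 11.8-fold above the highest control. The log2 fold change was 4.11 (95% interval 3.57 to 4.64, adjusted p = 9.9e-06 in edgeR), a 17.2-fold rise. As a part of the whole library, the cluster went from between 0.0292% and 0.0452% of all counts to between 0.516% and 0.641%.

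The fitted rise of CA1 was larger than that of each other C4 gene compared with it. Of 6 such genes, 3 rose, 1 fell and 2 did not pass, against the same 53.3% called in either direction and 28.0% called higher. Their median log2 fold change was 0.60, against -0.0042 over all tested genes. The log2 fold changes of the 3 that rose were 2.13 for PEPC (Sobic.010G160700), 1.17 for the dikinase that regenerates its substrate (PPDK, Sobic.009G132900) and 2.30 for NADP-malate dehydrogenase (Sobic.007G166300), which reduces the first C4 acid. NADP-malic enzyme (Sobic.003G036200), the bundle sheath decarboxylase, had a log2 fold change of -0.99. A second NADP-malic enzyme gene (Sobic.003G036000) and the Rubisco small subunit gene RBCS (Sobic.005G042000) did not pass. The call for RBCS turned on 1 control library: its log2 fold change was -0.39 ± 0.21 (SE, adjusted p = 0.15 in edgeR) with all 6 libraries and -0.61 ± 0.16 (adjusted p = 0.015, lower in SbGhd7 OE) when empty vector replicate 3 was left out. When SbGhd7 OE replicate 2 was left out as well, it was -0.60 ± 0.17 (edgeR adjusted p = 0.020), and the calls of the other 5 genes were as with all libraries in both settings.

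Within each library, the counts of CA1 relative to PEPC show the difference directly. There were 5.52, 6.07 and 8.95 counts of CA1 for every 100 of PEPC in the controls and 30.6, 33.2 and 32.8 in SbGhd7 OE, a 4.81-fold higher mean ratio (geometric, here and below). The 3 SbGhd7 OE ratios lay close together, with an SD of 0.0645 on the log2 scale against 0.369 in the controls. Against NADP-malate dehydrogenase the mean ratio was 4.21-fold higher, and against PPDK it was 9.50-fold higher. It was 42.0-fold higher against NADP-malic enzyme and 26.9-fold higher against RBCS. The groups did not overlap in any of these ratios, and each gave an exact permutation p = 0.1 (adjusted 0.12). The count ratios above and below use the same counts as the fold changes, so they are not separate support for them.

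Set against the summed counts of the 3 mesophyll markers, CA1 and CA2 were higher in SbGhd7 OE and CA3 was lower. CA1 had 1.97, 2.13 and 3.08 counts for every 100 of the summed markers in the controls and 14.5, 17.6 and 16.9 in SbGhd7 OE, a 6.93-fold higher mean ratio. CA2 had 0.200, 0.243 and 0.317 counts against 1.48, 2.35 and 1.49, which is 6.97-fold higher. CA3 had 0.524, 0.616 and 0.523 counts against 0.133, 0.281 and 0.216, which is 2.76-fold lower. The summed markers themselves were higher in SbGhd7 OE, while the CPM of CA3 did not pass the test (log2 fold change 0.16). None of the 3 ratios overlapped between the groups (exact permutation p = 0.1 each, adjusted 0.12). The markers stand for mesophyll transcripts by their names alone, and a change in the number of mesophyll cells was not tested.

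**Figure D3:**
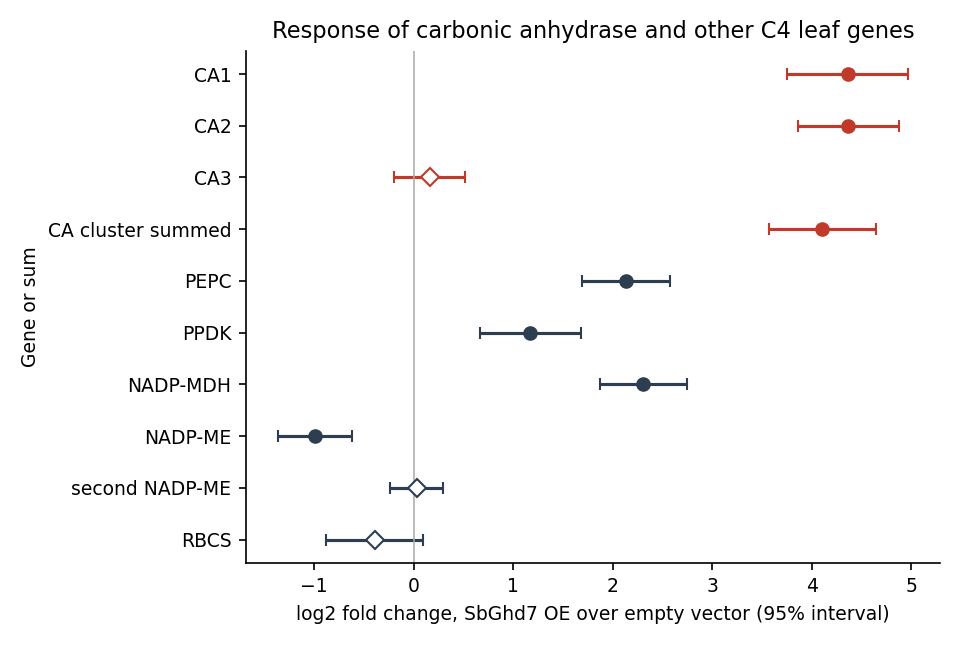
Log2 fold change of SbGhd7 OE over empty vector with its 95% interval for the carbonic anhydrase genes and their sum (red) and for 6 other C4 leaf genes (dark blue), where filled circles passed an adjusted p under 0.05 and open diamonds did not. CA1 and CA2 lie at 4.36 and 4.37, to the right of PEPC at 2.13 and NADP-MDH at 2.30, and CA3 lies at 0.16.

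In the control that stood apart, CA1 and CA2 were high together with NADP-malate dehydrogenase. Empty vector replicate 3 held 1.64, 1.56 and 1.43 times the mean CPM of the other controls for these 3 genes. For PEPC and PPDK it held 1.06 and 1.09 times that mean, and for RBCS 0.607 times. In SbGhd7 OE replicate 2, SbGhd7 stood at 0.489 times the mean of the other SbGhd7 OE libraries, CA1 at 0.803 times, CA2 at 1.13 times and CA3 at 1.16 times. Without both of these libraries the log2 fold changes were 4.73 for CA1, 4.55 for CA2 and 0.08 for CA3 (edgeR adjusted p = 4.7e-06, 2.8e-06 and 0.74), a setting added after the data were seen.

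The patterns of CA1 and CA2 over the 6 libraries were alike, and many other genes shared them. Pearson's r of log2 CPM was 0.997 between CA1 and CA2, 0.326 between CA1 and CA3 and 0.333 between CA2 and CA3. These are descriptions of 6 libraries that fall into 2 groups, and r over such points rests largely on the group difference. By this measure CA2 was only the 75th closest gene to CA1, and 2578 tested genes had an r above 0.95 with CA1. The closest gene to CA1 was Sobic.003G155400 (r = 0.9996, log2 fold change 1.23), and the closest to CA2 was Sobic.004G312800 (log2 fold change 3.09). CA3 had 14 genes with an r above 0.95, the closest being Sobic.005G096400 (r = 0.985, log2 fold change 0.18, edgeR adjusted p = 0.34). The files give these 3 identifiers no names.

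Gene models with numbers around the cluster were examined in the order of the numbers, 10 on each side and those in between. The only gene model numbered between members, Sobic.003G234300, which lies between CA1 and CA2, was almost silent, with 0, 1 and 0 counts in the controls and 2, 2 and 3 in SbGhd7 OE. It was too low to test. Of the 21 gene models, 16 were tested, of which 10 were higher in SbGhd7 OE, 2 were lower and 4 did not pass, against 53.3% called and 28.0% called higher among all tested genes. The median log2 fold change of the 16 was 0.56.

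The largest change in this stretch was in the gene model numbered directly before CA1. The controls held 3, 0 and 2 of its counts and the SbGhd7 OE libraries 414, 458 and 239 (log2 fold change 7.90, SE 0.517, edgeR adjusted p = 1.6e-05), and it is described here after its values were seen. Its counts were 0.286%, 0.331% and 0.147% of those of CA1 in SbGhd7 OE. Without knowledge of strand or position, whether this gene model overlaps CA1 could not be told. On the other side, the gene model numbered directly after CA3 did not pass (log2 fold change -0.28, edgeR adjusted p = 0.69). The largest rise among the 10 gene models after CA3 was a log2 fold change of 3.98.

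**Figure D4:**
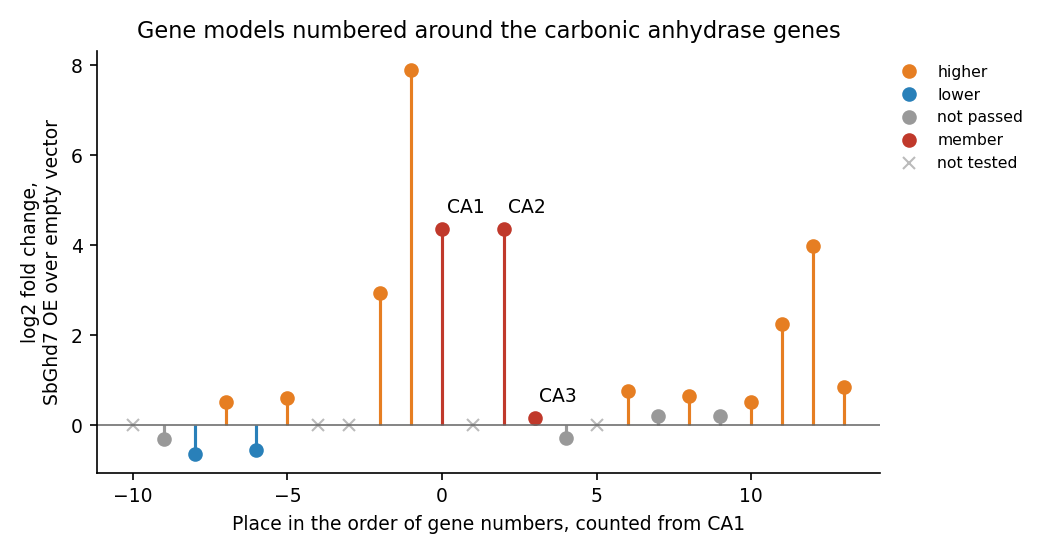
Log2 fold change of SbGhd7 OE over empty vector for CA1, CA2 and CA3 (red) and the 21 gene models numbered around them, by their place in the order of gene numbers counted from CA1; colours give the edgeR call and crosses mark gene models too low to test. The tallest line, at 7.90, is the gene model directly before CA1, and CA3 and the gene model after it lie near 0, at 0.16 and -0.28.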

How the data were processed

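Per the labels' protocols, total leaf RNA was taken with TRIzol, cleared of DNA with DNase I and prepared with a NEBNext Ultra RNA kit. The submitters' processing notes name HISAT2 (2.2.1), StringTie (2.2.1) and DESeq2 (2.11.40.7) without their roles. No source used here states the build, the strand option or any filter. The authors deposited 1 whole number per gene model and library, treated here as estimated counts. Between 2.91 and 3.57 times as many gene models had the value 2 as the value 1, so a value may not be 1 fragment, and intervals from counts cover counting error only. Library totals were 27844391 to 35830080.

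Groups and replicate numbers came from the titles. Genes were filtered with filterByExpr, scaled by TMM and tested across all 20820 tested genes with the quasi-likelihood test of edgeR 4.0.16 (robust; R 4.3.3), with a term for the group alone and p-values adjusted after Benjamini-Hochberg, called at 0.05. The procedure was also run on simulated data with far fewer changed genes than were called here, so that run does not cover this setting. Intervals of fold changes use the test's own degrees of freedom. The CPM values are TMM-scaled. Shares and log2 count ratios were compared with exact permutation tests over libraries. Replicates 1 and 2 of the empty vector were the closest pair (median chi-square over genes 1.93, against 4.02 to 7.04 for other pairs of a group), and both were kept. Alternatives were other scalings, filters and tests (DESeq2 1.42.0, limma 3.58.1), a replicate block, halved values, summed controls and leaving out libraries.

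The genes, the comparison genes and the tests were chosen with earlier results of these data known. The named genes are the members, SbGhd7, the 6 comparison genes, gene models numbered between members and, for each member, the gene with the highest r. The reference table (32945 genes) matched 0 of the 34129 identifiers, so all gene names rest on general knowledge of published sorghum names.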

Additional observations from a re-analysis of the deposited data

How the results depend on the processing

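Of 183 recomputed values of 13 results, 180 counted as unchanged. For fold changes this meant the same direction and side of the threshold. For shares and count ratios it meant a move smaller than the spread between libraries. Counts of called genes could move within a fixed ratio, so 7668 changed genes against 11087 counted as unchanged. With the replicate block, the mean of a share or count ratio equals the main one by arithmetic, so those values could not change. The log2 fold change of CA1 lay between 4.20 and 4.73, that of CA2 between 4.23 and 4.60 and that of the summed cluster between 3.97 and 4.41. That of CA3 lay between 0.049 and 0.33, both reached by leaving out 1 library, and it passed only without SbGhd7 OE replicate 1. Leaving out 1 library gave 8850 to 10722 changed genes, and all alternatives together 7668 to 11396, against 11087. Leaving out both libraries that stood apart, a setting added after the data were seen, moved the gain in the CA1 share from 14.9 to 18.2 percentage points and the change in the log2 ratio of CA3 to CA1 from -4.26 to -4.68. Leaving out 1 library, that change lay between -4.49 and -4.04 and the gain in the CA1 share between 13.4 and 17.1 percentage points. The log2 ratio of CA2 to CA1, which overlapped between the groups, differed by -0.16 to 0.14 when 1 library was left out, and so had no settled sign. With the replicate number as a block, the log2 fold changes were 4.39 for CA1, 4.40 for CA2, 0.14 for CA3 and 4.13 for the sum, with 9848 genes called. None of these 4 genes or sums changed its side of the threshold with the block. The same-numbered libraries did not deviate together (correlations of 0.0055, -0.055 and -0.11), no library correlated best with its own number in the other group, and the numbers were not treated as pairs. Shares per coding length were not run, because no table pairs the genes with lengths. Of the 21 neighbouring gene models, 5 had too few counts to be tested, 1 of them with 0 counts in all 6 libraries.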
